A study of Mus musculus with 20 samples.

Results

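The transcripts of the PAF1 complex were followed through an RNA immunoprecipitation (RIP) of the Tet enzymes in mouse embryonic stem cells (ESCs). The 6 genes were taken by name as the known subunits of the complex, *Paf1*, *Ctr9*, *Leo1*, *Rtf1*, *Cdc73* and *Wdr61*, out of 23284 genes in the deposited tables. All 6 were expressed well enough to enter the test, which covered 13710 genes.

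The study compared 3 knock-in ESC lines on a wild-type background, each with a triple tag (Flag, HA and Twin-Strep) added at the end of an endogenous Tet gene. The Tet1 line carries the tag on Tet1, the Tet2 line on full-length Tet2, and the Tet2dRBD line on a Tet2 from which the RNA-binding domain was removed. All lines were grown on gelatin in serum with leukemia inhibitory factor and received no other treatment. RNA recovered with anti-Flag antibody from cytoplasmic extract (IP) was sequenced beside RNA without the pull-down (input), which the methods call total RNA from ESCs. There were 2 pairs for Tet1, 4 for Tet2 and 4 for Tet2dRBD, 20 libraries in all. The lines were picked as clones, and how many clones stand behind the replicates is not given in the sources used here. By the methods the RIP was repeated as biological replicates, but the labels do not tie each replicate to a separate culture, so p-values measure the spread between these samples, which may be technical. IPs with a non-reactive antibody are described in the methods and were not analysed here, so every ratio below is IP over input and includes whatever RNA the beads held by themselves. If the input was RNA of whole cells, each ratio also carries any difference between cytoplasm and whole cell, which was not tested.

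The PAF1 complex travels with RNA polymerase II along transcribed genes, helps to release the paused polymerase and recruits the enzymes that ubiquitinate histone H2B and methylate histone H3. Ctr9 is its scaffold, Paf1 and Leo1 bind each other, Rtf1 stimulates H2B ubiquitination, Cdc73 (parafibromin) is a tumor suppressor in man, and Wdr61 is a WD-repeat protein that also belongs to the SKI complex of cytoplasmic RNA decay. In ESCs the complex is known for keeping pluripotency genes active. *Paf1* served as the reference in the comparisons that follow, because earlier results of these data had shown its transcript near or below input, and the differences from it carry that choice.

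The libraries held between 21078995 and 37576638 expected counts. The input libraries carried all 7 pluripotency markers checked, with a summed level of 3715 to 5816 TPM (transcript abundance per length, relative to all transcripts) per library and *Pou5f1* highest. The 15 markers of endoderm, mesoderm, neuroectoderm and fibroblasts summed to 51.5 to 145 TPM, with *Thy1* highest at a mean of 23.0 TPM and 6 of the 15 below 1 TPM on average. By numbers in the names of the deposited files, replicates 1 of Tet2 and Tet2dRBD belong to one library set, replicates 2 to another, and replicates 3 and 4 to a further one that also holds all Tet1 libraries.

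The 6 genes lie on 4 mouse chromosomes (NCBIM37, mm9, gencode annotation). *Paf1* is at chr7:29177970-29184407 and *Ctr9* at chr7:118172465-118199891, both on the plus strand, as are *Leo1* at chr9:75289331-75314239 and *Rtf1* at chr2:119500804-119561143. *Cdc73*, at chr1:145445927-145550023, and *Wdr61*, at chr9:54562542-54595757, are on the minus strand. Exons of *Wdr61* overlap those of *Dnaja4* on the other strand, and whether the reads were counted by strand is not given in the sources used here, so part of its reads could belong to that gene. The study described a UC-rich motif at its sites in RNA. The longest uninterrupted run of C and U in the longest annotated transcript of each gene is therefore shown, with T for U. The study found its sites mostly in introns, which the spliced transcripts searched here leave out. Capitals mark the run and lower case the bases beside it. The run of *Ctr9* is 49 bases long, of which the first 30 are given.

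*Paf1*, 5′ UTR: cccacttcaTCCCCTTTCCCCgcggagccc
*Ctr9*, 3′ UTR: CCCCTCCCCTCTCCTCTCCTCTCCTCTCCT
*Leo1*, coding sequence: gacatggaggaCCTCTTCgggagcgaagct
*Rtf1*, 3′ UTR: gtcctgCCTTTCCTCTTTTCCTCTgattcg
*Cdc73*, 3′ UTR: tatctaTTTCTTTCTCTTTTTCTacctcaa
*Wdr61*, 3′ UTR: tttaccacaCCCTCTCTCCCTgttcttttt

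These stretches lie at chr7:29178085-29178114 (*Paf1*), chr7:118199590-118199619 (*Ctr9*), chr9:75289391-75289420 (*Leo1*), chr2:119558671-119558700 (*Rtf1*), chr1:145453463-145453492 (*Cdc73*) and chr9:54564697-54564726 (*Wdr61*). A run at least as long as that of *Ctr9* was found in 1.80% of 22611 genes. For *Rtf1*, with a run of 18 bases, the share was 18.7%, and for *Cdc73*, with 17 bases, it was 22.7%. *Paf1* and *Wdr61* both have a longest run of 12 bases, a length reached by 66.0% of genes. The longest run of *Leo1* has 7 bases, a length reached by 98.5% of genes, and C and T make up 38.2% of its transcript, which puts it at percentile 0.398 of all genes. The run of *Cdc73* lies in a transcript of 11589 bases, while the gene model used for its counts had an effective length of 2610 bases, so the stretch need not lie in the counted model. The same holds for *Wdr61*, whose transcript has 3372 bases beside an effective length of 1145 bases. No test relates these runs to the IP.

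In the inputs, *Wdr61* was the most abundant member and *Paf1* the second, with the remaining 4 at about 9 to 12 TPM on average. *Wdr61* averaged 129 TPM ± 16.0 (SD, n = 10 inputs), with a range of 104 to 157. *Paf1* averaged 24.8 TPM ± 4.85 and ranged from 17.9 to 31.6. *Wdr61* exceeded *Paf1* in 10 of 10 inputs, by 2.35 ± 0.15 on the log2 scale. *Cdc73* averaged 12.1 TPM ± 6.02, *Ctr9* 9.70 ± 3.45, *Rtf1* 9.33 ± 2.73 and *Leo1* 8.81 ± 3.74. *Paf1* stood above *Cdc73* in 10 of 10 inputs (log2 difference 1.07 ± 0.65). The order among the last 4 was within their spread, as the steps from *Cdc73* to *Ctr9* (0.25 ± 0.84), *Ctr9* to *Rtf1* (0.02 ± 0.54) and *Rtf1* to *Leo1* (0.13 ± 0.50) were all smaller than their SD.

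**Figure D1:**
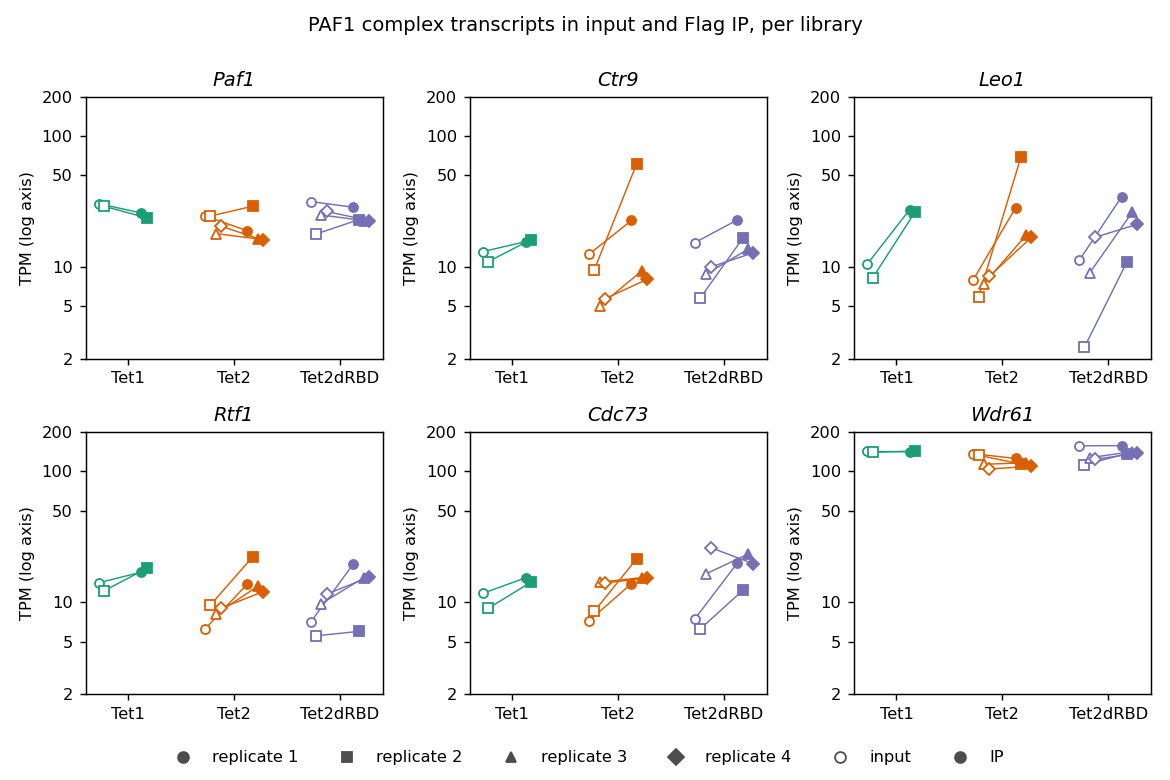
Level of each PAF1 complex transcript in every library, as TPM on a log axis, with input (open symbols) joined to the IP of the same pair (filled symbols), by line and replicate. *Leo1* and *Ctr9* lie above input in all 10 pairs, *Paf1* lies below it in 8 of 10, and all libraries have *Wdr61* between 104 and 157 TPM.

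*Leo1*, which encodes the partner of Paf1 in the complex, had the highest IP over input of the 6. In Tet2, its level was 7.99, 5.89, 7.41 and 8.46 TPM in inputs 1 to 4 and 28.3, 69.0, 17.5 and 16.9 TPM in the matching IPs. Each IP lay above its own input, as for 46.5% of all genes tested, and replicate 2 was far above the other IPs. In Tet1, the inputs stood at 10.5 and 8.24 TPM and the IPs at 27.4 and 26.3 TPM. In Tet2dRBD, the inputs were 11.2, 2.44, 9.02 and 16.9 TPM and the IPs 34.3, 10.9, 26.1 and 21.2 TPM. Each Tet2dRBD IP was above its own input, but the lowest IP, replicate 2, was below the inputs of replicates 1 and 4. As log2 of (TPM + 1) in IP over (TPM + 1) in input, referred to as the log2 ratio, the mean was 1.43 ± 0.18 in Tet1 (SD, n = 2), 1.78 ± 1.10 in Tet2 (n = 4) and 1.27 ± 0.65 in Tet2dRBD (n = 4). *Leo1* had the highest log2 ratio of the 6 members in 9 of 10 pairs.

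*Ctr9*, the scaffold subunit, came next in Tet2. Its inputs in that line were 12.5, 9.55, 5.05 and 5.72 TPM and its IPs 22.7, 61.5, 9.36 and 8.07 TPM. Every IP exceeded its input, although the IPs of replicates 3 and 4 were below the inputs of replicates 1 and 2, so the groups overlapped. In Tet1 the inputs were 13.1 and 11.0 TPM and the IPs 15.6 and 16.2 TPM. In Tet2dRBD the inputs were 15.4, 5.80, 8.79 and 10.0 TPM and the IPs 22.9, 16.5, 13.7 and 12.8 TPM. The mean log2 ratio was 0.37 ± 0.20 in Tet1, 1.15 ± 0.96 in Tet2 and 0.71 ± 0.45 in Tet2dRBD, with the IP higher in 10 of 10 pairs.

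*Rtf1*, the subunit that stimulates H2B ubiquitination, was also above input in 10 of 10 pairs. In Tet2 it went from 6.26, 9.50, 8.10 and 9.01 TPM in input to 13.8, 22.3, 13.3 and 12.1 TPM in IP. Above input in every Tet2 pair were 46.5% of all genes tested. In Tet1 it went from 14.1 and 12.3 TPM to 17.0 and 18.2 TPM. In Tet2dRBD the inputs were 7.10, 5.56, 9.80 and 11.6 TPM and the IPs 19.6, 6.00, 15.4 and 15.6 TPM, with replicate 2 nearly level. The mean log2 ratio was 0.39 ± 0.19 in Tet1, 0.80 ± 0.35 in Tet2 and 0.61 ± 0.53 in Tet2dRBD.

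*Cdc73*, the parafibromin gene, differed between the library sets. In Tet2, replicates 1 and 2 went from 7.23 and 8.58 TPM to 13.9 and 21.5 TPM, while replicates 3 and 4 went from 14.2 and 14.1 TPM to 15.5 and 15.3 TPM. The inputs of this line thus differed between the sets, while 3 of the 4 IPs stood between 13.9 and 15.5 TPM and that of replicate 2 at 21.5 TPM. The cause of this difference was not tested. In Tet1 the inputs were 11.8 and 9.03 TPM and the IPs 15.4 and 14.3 TPM. In Tet2dRBD the inputs were 7.51, 6.27, 16.5 and 26.2 TPM and the IPs 19.97, 12.3, 23.4 and 19.8 TPM, so that replicate 4 was the single pair of 10 in which *Cdc73* was lower in IP. The mean log2 ratio was 0.48 ± 0.17 in Tet1, 0.58 ± 0.56 in Tet2 and 0.57 ± 0.72 in Tet2dRBD.

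*Wdr61*, the subunit shared with the SKI complex, was nearly level between IP and input. In Tet1 the inputs were 142 and 140.0 TPM and the IPs 141 and 143 TPM. In Tet2 the inputs were 137, 133, 113 and 104 TPM and the IPs 126, 114, 117 and 109 TPM, and in Tet2dRBD the inputs were 157, 112, 127 and 124 TPM and the IPs 157, 137, 142 and 137 TPM. IP and input overlapped in each line. The mean log2 ratio was 0.01 ± 0.03 in Tet1, -0.06 ± 0.14 in Tet2 and 0.15 ± 0.11 in Tet2dRBD.

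*Paf1*, the subunit that names the complex, was lower in IP than in input in 8 of 10 pairs. In Tet1 it went from 30.4 and 29.0 TPM to 25.8 and 23.8 TPM, below input in both pairs, as were 30.1% of all genes tested. In Tet2 the inputs were 24.5, 24.5, 18.0 and 20.5 TPM and the IPs 18.9, 29.1, 16.4 and 16.0 TPM, replicate 2 being the pair with the IP above input. In Tet2dRBD the inputs were 31.6, 17.9, 25.0 and 26.5 TPM and the IPs 28.6, 23.0, 22.6 and 22.6 TPM, and again replicate 2 was the pair with the IP above input. The mean log2 ratio was -0.25 ± 0.03 in Tet1, -0.15 ± 0.28 in Tet2 and -0.04 ± 0.26 in Tet2dRBD. *Paf1* had the lowest log2 ratio of the 6 members in 7 of 10 pairs, and *Paf1* and *Wdr61* together held both lowest places in 8 of 10.

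**Figure D2:**
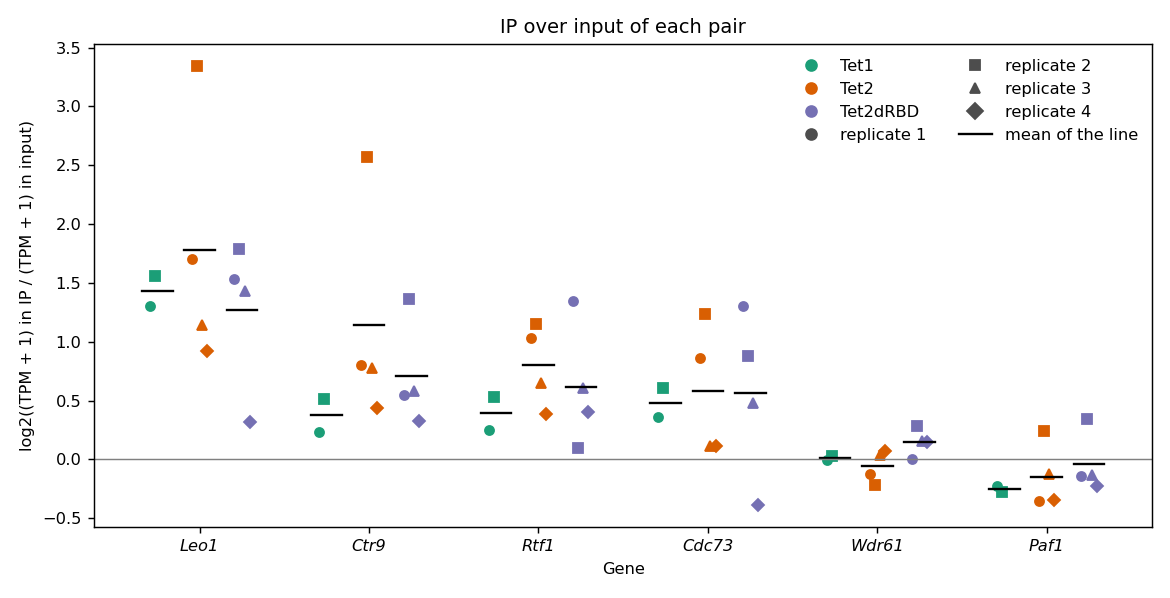
The log2 ratio of IP over input, from TPM + 1, for each member in each pair, colored by line with 1 symbol per replicate and a bar at the mean of the line. *Leo1* spans 0.31 to 3.34 and *Paf1* -0.36 to 0.34, with replicate 2 of Tet2 highest for *Leo1* and *Ctr9*.

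The study took a transcript as enriched when the IP held more of it than the input, in TPM, and here this was asked of every pair. In Tet1 and in Tet2 the same 4 members, *Ctr9*, *Leo1*, *Rtf1* and *Cdc73*, were above input in every pair, as were 50.9% and 46.5% of all genes tested. In Tet2dRBD the 4 were *Ctr9*, *Leo1*, *Rtf1* and *Wdr61*, beside 31.8% of all genes. Below input in every pair was *Paf1* in Tet1, where 30.1% of genes did the same, and no member in Tet2 (11.9% of genes) or Tet2dRBD (8.56%). When each pair was centered on the median log2 ratio of expressed genes, *Wdr61* left the set in Tet2dRBD and *Cdc73* left it in Tet2. Among all genes, the number above input in every pair went from 6980 to 5739 in Tet1 with this centering. It went from 6369 to 3513 in Tet2 and from 4353 to 2484 in Tet2dRBD. When the IP had to reach 1.5 times the input in every pair, *Leo1* alone remained in Tet1 and in Tet2, and no member in Tet2dRBD. Among all genes, 1248 met this stricter rule in Tet1, 810 in Tet2 and 177 in Tet2dRBD. This rule has no error attached, and with 2 pairs in Tet1 it is easier to meet there than with 4.

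IP and input were then compared over all genes with edgeR's quasi-likelihood test on the expected counts, with the pair as a block and p-values adjusted by Benjamini-Hochberg over the 13710 genes. This fit scales the libraries by TMM, which sets the typical gene to a ratio near 0. On the TPM scale, the median log2 ratio of the tested genes was 0.05 and 0.11 in the Tet1 pairs, 0.11 to 0.34 in the Tet2 pairs and 0.03 to 0.26 in the Tet2dRBD pairs, so fitted ratios run lower than those from TPM. *Wdr61* stood on the 2 sides of 0 in Tet1 and Tet2dRBD, slightly above by TPM and slightly below in the fit.

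In Tet2, the IP was enriched in *Leo1*, *Ctr9* and *Rtf1* and depleted of *Paf1* and *Wdr61*. The fitted log2 ratio of *Leo1* was 1.57 ± 0.37 (SE, adjusted p = 0.0091 by edgeR). For *Ctr9* it was 0.91 ± 0.30 (adjusted p = 0.040) and for *Rtf1* 0.56 ± 0.16 (adjusted p = 0.021). *Paf1* was at -0.47 ± 0.15 (adjusted p = 0.029) and *Wdr61* at -0.38 ± 0.12 (adjusted p = 0.038), while *Cdc73*, at 0.31 ± 0.25, did not pass (adjusted p = 0.37). Thus 3 of 6 members were called higher, where 14.6% of all genes were, and 2 of 6 lower, where 18.5% were. Among all genes, the fitted ratio of *Leo1* was at percentile 97.4, *Ctr9* 92.1, *Rtf1* 84.7, *Cdc73* 72.4, *Wdr61* 23.1 and *Paf1* 18.0.

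The call on *Leo1* was kept when any 1 of the 10 pairs was left out, and the other 4 were not. Without Tet2 replicate 2, in which *Ctr9* and *Leo1* had their highest IP levels, *Leo1* was at 1.10 (adjusted p = 0.018) and *Ctr9* at 0.49 (adjusted p = 0.11), and *Rtf1* and *Wdr61* also lost the call (adjusted p = 0.072 and 0.15). Without Tet2 replicate 1 or 3, *Leo1* alone stayed past the threshold, *Paf1* being at -0.33 (adjusted p = 0.19) and -0.51 (adjusted p = 0.053). *Paf1* was also lost without replicate 4 (adjusted p = 0.081). At nearly the same ratios, *Ctr9* was lost without Tet1 replicate 2, and *Wdr61* without either Tet1 replicate or without Tet2dRBD replicate 3. With replicates 3 and 4 merged into 1, *Leo1* kept the call at 1.78 (adjusted p = 0.013) and the other 4 lost it (adjusted p = 0.058 for *Ctr9*, 0.050 for *Rtf1*, 0.069 for *Paf1* and 0.057 for *Wdr61*). The merged fit called 3191 genes in Tet2, beside 4540 in the main fit. Without the pair as a block, none of the 5 passed (edgeR, *Leo1* at 1.71, adjusted p = 0.052), in a fit that called 375 genes in Tet2. On the TPM scale, *Paf1* and *Wdr61* did not pass in Tet2 (limma on log2(TPM + 1), adjusted p = 0.36 and 0.61), while *Leo1*, *Ctr9* and *Rtf1* did (adjusted p = 0.0035, 0.011 and 0.0075).

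In Tet2dRBD, no member passed the test. The order of the 6 fitted ratios was the same as in Tet2, but some of its steps were within the spread. By TPM, *Ctr9* exceeded *Rtf1* in 1 of 4 Tet2dRBD pairs (log2 difference 0.09 ± 0.86, SD), and by 0.34 ± 0.73 in Tet2. The step from *Rtf1* to *Cdc73* was 0.04 ± 0.64 in Tet2dRBD and 0.22 ± 0.26 in Tet2. *Leo1* was at 1.12 ± 0.36 (adjusted p = 0.052 by edgeR), *Ctr9* at 0.49 ± 0.30 (adjusted p = 0.26), *Rtf1* at 0.39 ± 0.16 (adjusted p = 0.11) and *Cdc73* at 0.34 ± 0.26 (adjusted p = 0.36). *Wdr61* was at -0.13 ± 0.12 (adjusted p = 0.48) and *Paf1* at -0.32 ± 0.15 (adjusted p = 0.15). The test called 7.4% of all genes higher and 12.1% lower in this line. At an unadjusted p under 0.05 it named 2 members, *Leo1* and *Rtf1*, beside 35.4% of all genes, and DESeq2 called the same 2 after adjustment (adjusted p = 0.0044 and 0.045) beside 23.9% of all genes. Without Tet2dRBD replicate 4, the pair in which *Cdc73* was lower in IP, *Leo1* was at 1.47 (adjusted p = 0.020) and *Cdc73* at 0.68 (adjusted p = 0.049). Without replicate 2, *Paf1* was at -0.48 (adjusted p = 0.026) and *Rtf1* at 0.54 (adjusted p = 0.043). *Leo1* also passed without Tet2 replicate 2, at nearly the same ratio as in the main fit (1.12, adjusted p = 0.010). Among all genes, the main fit called 1014 higher and 1660 lower in Tet2dRBD. The numbers were 1226 and 1227 without Tet2dRBD replicate 4, 1135 and 1615 without its replicate 2, and 1439 and 1980 without Tet2 replicate 2.

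In Tet1, which has 2 pairs, no member passed either. *Leo1* was at 1.38 ± 0.50 (adjusted p = 0.13 by edgeR) and *Paf1* at -0.41 ± 0.20 (adjusted p = 0.26). The remaining ratios were 0.37 ± 0.36 for *Cdc73*, 0.27 ± 0.22 for *Rtf1*, 0.25 ± 0.41 for *Ctr9* and -0.14 ± 0.17 for *Wdr61*. The test called 2.72% of all genes higher and 3.18% lower. *Leo1* was the single member at an unadjusted p under 0.05, as were 23.5% of all genes, and the single one called by DESeq2 (adjusted p = 0.039), which called 11.5% of all genes. It passed in edgeR without Tet2 replicate 2 (1.37, adjusted p = 0.035), at nearly the same ratio. That fit called 624 genes higher and 748 lower of 13692 in Tet1, beside 373 and 436 of 13710 in the main fit.

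**Figure D3:**
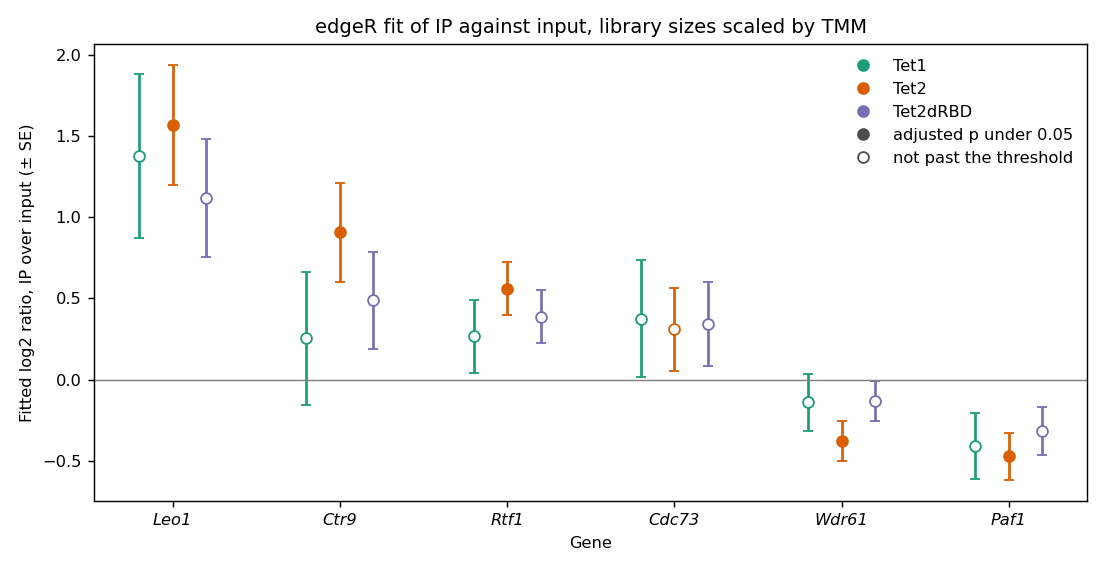
Fitted log2 ratio of IP over input (edgeR, TMM) of each member in each line, with bars of 1 SE and filled symbols where the adjusted p was under 0.05. The 5 filled symbols are all in Tet2, with *Leo1* at 1.57 and *Paf1* at -0.47.

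Within the library set that holds replicates 3 and 4 and all Tet1 libraries, the ratios were smaller in Tet2 and the spread much narrower. The test called 19.6% of all genes higher and 27.2% lower in Tet1 there, 24.7% and 25.1% in Tet2, and 24.2% and 24.9% in Tet2dRBD. *Leo1* was at 1.34 in Tet1, 0.91 in Tet2 and 0.64 in Tet2dRBD (edgeR, adjusted p = 0.00031, 0.0034 and 0.019). *Rtf1* was past the threshold in all 3 lines at 0.23, 0.36 and 0.27 (adjusted p = 0.042, 0.0053 and 0.024), and so was *Paf1* in the other direction, at -0.45, -0.46 and -0.46 (adjusted p = 0.0013, 0.0012 and 0.00099). *Ctr9* passed in Tet2 at 0.48 (adjusted p = 0.0027), and *Wdr61* passed in Tet1 at -0.18 (adjusted p = 0.040). *Cdc73* was at 0.34, -0.09 and -0.23 and did not pass in any line (adjusted p = 0.10, 0.65 and 0.22). Its fitted ratio was thus above 0 in Tet2 and Tet2dRBD over all libraries and below 0 within this set.

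Whether the RNA-binding domain of Tet2 matters for these transcripts was asked of the contrast between both lines in the same fit. No member differed by edgeR (all adjusted p = 1.00, none at an unadjusted p under 0.05, and none by DESeq2), and 0.0219% of all genes did. The difference Tet2 minus Tet2dRBD was 0.45 ± 0.51 for *Leo1*, 0.42 ± 0.42 for *Ctr9*, 0.17 ± 0.23 for *Rtf1*, -0.04 ± 0.36 for *Cdc73*, -0.16 ± 0.20 for *Paf1* and -0.25 ± 0.17 for *Wdr61*. Within the library set of replicates 3 and 4 and of Tet1, 89 of 13379 genes were higher in Tet2 than in Tet2dRBD and 2 lower. No member passed there (edgeR), with *Ctr9* at 0.26 ± 0.14 (adjusted p = 0.46) and *Leo1* at 0.27 ± 0.28 (adjusted p = 0.69). These misses do not show that the members act alike with and without the domain. For Tet1 minus Tet2, edgeR called 0 genes (0% of those tested, 517 at an unadjusted p under 0.05, 13 by DESeq2), so no member either. *Ctr9* had the largest difference among the members there, at -0.65 ± 0.51 (adjusted p = 0.94). All Tet1 libraries lie in a single library set, whereas Tet2 spans 3. Within the set they share, 2.35% of genes differed between Tet1 and Tet2 and again no member did (edgeR), with *Leo1* at 0.43 ± 0.28 (adjusted p = 0.41), *Cdc73* at 0.42 ± 0.22 (adjusted p = 0.29) and *Ctr9* at -0.27 ± 0.14 (adjusted p = 0.30).

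The remaining subunits were next set against *Paf1* within the same pair, as the log2 ratio of each gene minus that of *Paf1*, in which the scaling of the libraries cancels apart from the pseudocount of 1. *Leo1* and *Ctr9* were above *Paf1* in 10 of 10 pairs, *Rtf1* and *Cdc73* in 9 of 10 and *Wdr61* in 8 of 10. In Tet2, *Leo1* exceeded *Paf1* by 1.92 ± 0.87 (SD, n = 4), with an adjusted p of 0.00023 over all genes by limma. *Ctr9* exceeded it by 1.29 ± 0.71 (adjusted p = 0.00074), *Rtf1* by 0.95 ± 0.30 (adjusted p = 0.0044) and *Cdc73* by 0.73 ± 0.46 (adjusted p = 0.019), whereas *Wdr61*, at 0.09 ± 0.38, did not differ beyond the spread (adjusted p = 0.68). So 4 of 5 subunits were above *Paf1* in Tet2, in a line where 39.5% of all genes were. *Paf1* was made the reference with its ratio already known to be near or below input, which favors such calls. In this and the other lines, the p-values of these differences describe them and are no independent evidence.

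In Tet2dRBD, *Leo1* was above *Paf1* by 1.31 ± 0.52 (limma, adjusted p = 0.0069) and *Ctr9* by 0.74 ± 0.20 (adjusted p = 0.031), 2 of 5 subunits beside 14.8% of all genes. *Rtf1* at 0.65 ± 0.71 (adjusted p = 0.057), *Cdc73* at 0.61 ± 0.66 (adjusted p = 0.077) and *Wdr61* at 0.19 ± 0.19 (adjusted p = 0.46) did not pass. In Tet1, *Leo1* exceeded *Paf1* by 1.68 ± 0.22 (SD, n = 2 pairs; limma, adjusted p = 0.016), 1 of 5 beside 7.66% of all genes. *Cdc73* was at 0.73 ± 0.21, *Rtf1* at 0.64 ± 0.23, *Ctr9* at 0.63 ± 0.23 and *Wdr61* at 0.26 ± 0.06, and none of them passed (adjusted p = 0.17, 0.22, 0.21 and 0.48). The calls on *Leo1*, *Ctr9* and *Rtf1* in Tet2 were kept when any 1 pair was left out. That on *Cdc73* in Tet2 was lost without Tet2 replicate 1 or 2. That on *Ctr9* in Tet2dRBD was lost without any 1 of its own replicates, where *Leo1* stayed past the threshold. That on *Leo1* in Tet1 was lost without either Tet1 pair.

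**Figure D4:**
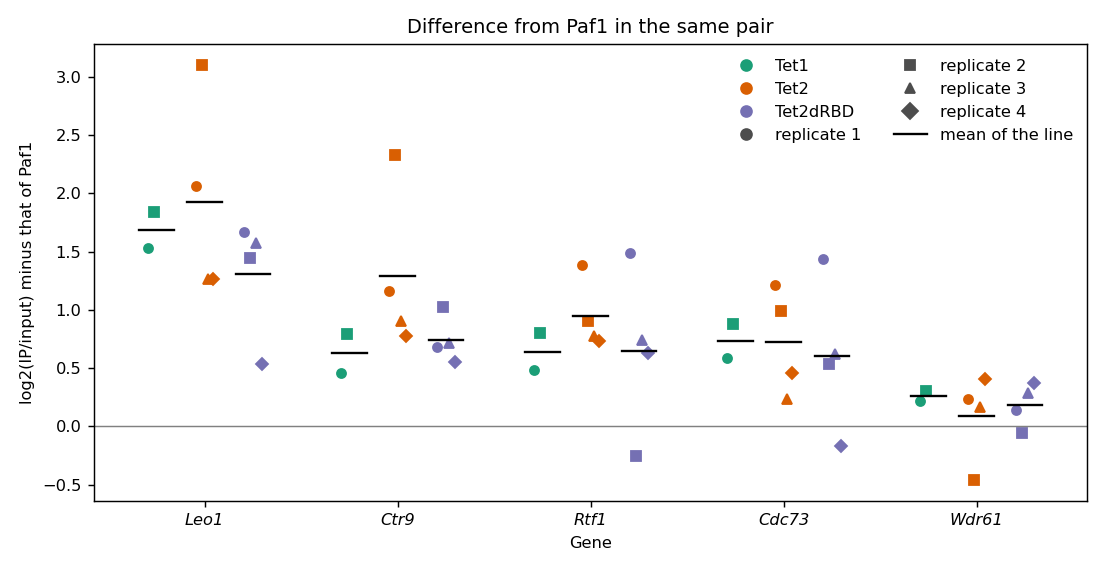
The log2 ratio of each subunit minus that of *Paf1* in the same pair, colored by line with 1 symbol per replicate and a bar at the mean of the line. *Leo1* lies above 0 in all 10 pairs, from 0.54 to 3.10, while *Wdr61* lies between -0.46 and 0.41.

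The balance of *Leo1*, *Ctr9*, *Rtf1* and *Cdc73* to *Paf1* had a higher mean in the IPs than in the inputs. Relative to *Paf1* in the same library, *Leo1* stood at 0.351 ± 0.130 in the inputs and 1.19 ± 0.485 in the IPs (TPM over TPM, SD, n = 10 each). *Ctr9* went from 0.381 ± 0.0783 to 0.836 ± 0.490, *Rtf1* from 0.378 ± 0.0851 to 0.680 ± 0.155 and *Cdc73* from 0.505 ± 0.255 to 0.772 ± 0.172. *Wdr61* stood at 5.29 ± 0.604 in the inputs and 5.98 ± 0.901 in the IPs. The input and IP ranges of all 5 overlapped, as the lowest IP value of *Leo1* (0.475, Tet2dRBD) was below its highest input value (0.635, Tet2dRBD).

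Members also differ in length, which moved with the ratio across genes. The models used for the counts had effective lengths of 1145 bases for *Wdr61*, 1885 for *Paf1*, 2124 for *Leo1*, 2610 for *Cdc73*, 4232 for *Ctr9* and 4596 for *Rtf1*, so the 2 shortest were the 2 with the lowest ratios, and *Leo1*, with the highest, came next in length. Across the 13710 genes tested, which are not independent replicates and share libraries, Spearman's rank correlation between effective length and mean log2 ratio was 0.18 in Tet1, 0.40 in Tet2 and 0.34 in Tet2dRBD. Split into 5 equal classes by length, the shortest genes had a median log2 ratio of -0.06 in Tet2 and the longest 0.42. The correlation of the ratio with input level was -0.15 in Tet1, -0.12 in Tet2 and -0.10 in Tet2dRBD, where input is also the denominator of the ratio. *Wdr61* and *Paf1*, with the lowest ratios, were also the 2 most abundant members in the inputs. The part of length or of input level in the members' ratios was not tested.

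Levels in the inputs were compared between the lines in a fit of the 10 inputs with the library set as a block. Between Tet2dRBD and Tet2, no member differed by edgeR (3.14% of genes did, no member at an unadjusted p under 0.05 and none by DESeq2), with differences from 0.0045 ± 0.16 for *Rtf1* to 0.29 ± 0.21 for *Ctr9*. *Ctr9* and *Paf1* were called higher in Tet2dRBD without Tet2 replicate 2 (0.54 and 0.31, adjusted p = 0.025 and 0.038) and likewise without Tet2dRBD replicate 2 (0.57 and 0.35, adjusted p = 0.025 and 0.026). Calls over all genes also rose in these fits, from 180 higher and 238 lower of 13310 genes in the main fit. They were 616 and 900 of 13277 without Tet2 replicate 2, and 753 and 726 of 13254 without Tet2dRBD replicate 2. Between Tet1 and Tet2, *Ctr9* was higher in Tet1 by 0.84 ± 0.27 (adjusted p = 0.044 by edgeR), 1 of 6 members where 17.5% of genes were higher. This call was lost in 7 of the 10 fits that left out 1 input and kept without replicate 2 of Tet2 or replicates 2 or 4 of Tet2dRBD. Without Tet2 replicate 2, all members but *Leo1* were called, *Cdc73* lower and the other 4 higher in Tet1, in a fit that called 43.6% of genes in either direction. *Paf1* (0.46 ± 0.16), *Rtf1* (0.42 ± 0.20), *Wdr61* (0.27 ± 0.10), *Leo1* (-0.08 ± 0.41) and *Cdc73* (-0.70 ± 0.26) did not pass (adjusted p = 0.062, 0.15, 0.073, 0.90 and 0.070). In bulk inputs, fewer cells that express a gene and less of its RNA per cell cannot be told apart.

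Among the subunits, *Wdr61* was most like *Paf1* over all 10 pairs. Likeness was measured as the root mean square difference in log2 ratio over the 10 pairs, among 8466 genes with a mean input of at least 5 TPM. The genes most like *Paf1* were *5730528L13Rik* (0.0954), *Bzw1* (0.115) and *Cnpy4* (0.119). *Wdr61* ranked 742 in that order (0.292), *Cdc73* 7116, *Rtf1* 7496, *Ctr9* 7955 and *Leo1* 8378. The genes most like *Leo1* were *Kntc1* (0.270), *D6Wsu116e* (0.341) and *Topbp1* (0.358), and in that order *Ctr9* ranked 181, *Cdc73* 733, *Rtf1* 830, *Wdr61* 5781 and *Paf1* 6254.

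The transcripts of the machinery that works beside the PAF1 complex moved in both directions in Tet2. The first list held 22 genes, mainly for DSIF and NELF, which pause the polymerase, and P-TEFb and the super elongation complex, which release it. Also on it were *Cdk12*, *Cdk13* and *Ccnk*, and *Hexim1*, *Larp7* and *Mepce* of the inactive 7SK form of P-TEFb. Of the 22 genes, 8 rose, 2 fell and 12 did not pass in Tet2 (edgeR over all genes). For this list and those that follow, the share of all genes called was 14.6% higher and 18.5% lower in Tet2, 2.72% and 3.18% in Tet1, and 7.4% and 12.1% in Tet2dRBD. The list's median fitted log2 ratio was 0.24, beside 0.0032 for all genes tested. *Ell2*, a subunit of the super elongation complex, was at 1.63 ± 0.37 (SE, adjusted p = 0.0080), *Cdk13*, a kinase of the polymerase tail, at 1.14 ± 0.28 (adjusted p = 0.010) and *Larp7*, which holds P-TEFb in its inactive form on the 7SK RNA, at 1.06 ± 0.31 (adjusted p = 0.024). In Tet1, 1 of these 22 genes rose and 1 fell, and in Tet2dRBD 3 rose and 2 fell.

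Of 12 histone chaperones and elongation factors, 4 rose and 2 fell in Tet2 (median 0.44), with *Tcea3*, which rescues stalled polymerase, at 1.05 ± 0.25 (adjusted p = 0.0086), and the chromatin remodelers *Chd2* at 0.94 ± 0.26 (adjusted p = 0.018) and *Chd1* at 0.99 ± 0.32 (adjusted p = 0.034). None passed in Tet1 by edgeR, and in Tet2dRBD 1 rose and 1 fell. Of 11 tested histone modifiers linked to the complex, 2 rose and 2 fell in Tet2 (median 0.18). *Setd2*, the H3K36 methyltransferase, rose by 1.47 ± 0.36 (adjusted p = 0.010). The 2 that fell were *Ube2a*, at -1.33 ± 0.14 (adjusted p = 0.00015), and *Ube2b*, at -1.16 ± 0.10 (adjusted p = 7.8e-05), the paired enzymes that bring ubiquitin to H2B. The histone modifiers gave 1 rise and 2 falls in Tet1, and 2 rises and 2 falls in Tet2dRBD.

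The SKI complex, to which Wdr61 also belongs, was also split. In Tet2, *Ttc37*, its scaffold, was at 1.16 ± 0.22 (adjusted p = 0.0031 by edgeR) and *Skiv2l*, its helicase, at 0.62 ± 0.13 (adjusted p = 0.0061), against -0.38 for *Wdr61*. In Tet2dRBD *Ttc37* rose and in Tet1 none of the 3 passed. Of 13 RNA polymerase II subunit genes, 7 fell and none rose in Tet2 (median -0.49), led by *Polr2d* at -0.96 ± 0.11 (adjusted p = 0.00027), *Polr2k* at -0.89 ± 0.22 (adjusted p = 0.012) and *Polr2j* at -0.87 ± 0.15 (adjusted p = 0.0019). By TPM, these 3 were above input in 0 of 4 Tet2 pairs. In Tet2dRBD 2 of the 13 fell, and in Tet1 none passed. By TPM, the median of the polymerase list was -0.17 in Tet2, beside 0.23 for all genes tested, and 0.01 in Tet2dRBD, beside 0.19. The 6 members of the PAF1 complex had a median fitted ratio of 0.43 in Tet2, 0.37 in Tet2dRBD and 0.26 in Tet1.

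**Figure D5:**
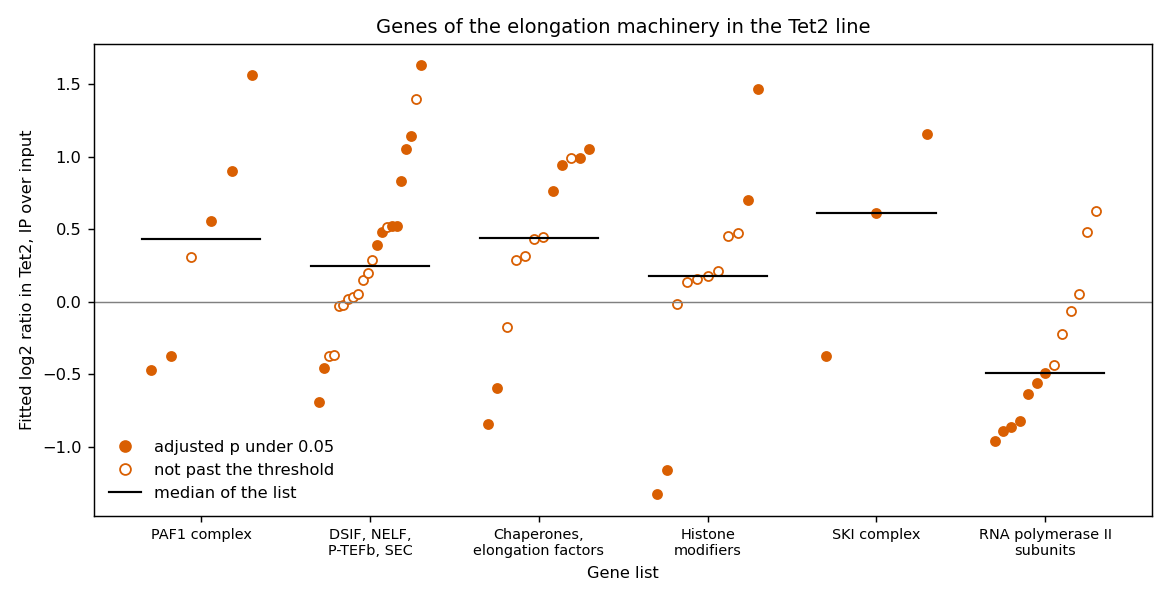
Fitted log2 ratio of IP over input in Tet2 (edgeR, TMM) for the genes of 6 lists, sorted within each list, filled where the adjusted p was under 0.05 and with a bar at the median of the list. The PAF1 complex ranges from -0.47 to 1.57, and 7 of the 13 polymerase subunits are filled and below 0.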

How the data were processed

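RIP-Seq of tagged Tet1, Tet2 and Tet2dRBD was analysed in 20 libraries of mouse ESCs, grouped and paired by the sample labels. Per the submitters' processing notes and the methods, the authors trimmed reads with Trimmomatic, checked them with FastQC and aligned them with Bowtie2, and RSEM estimated expression on RefSeq transcripts of mm9. The deposited tables hold expected counts per gene, which were rounded to whole numbers here, and a TPM + 1 column, treated as a score because adding 1 to every gene breaks the fixed sum of TPM; subtracting 1 gave TPM. Other columns served as annotation.

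Genes with at least 1 CPM in at least 2 libraries were tested with edgeR 4.0.16 (R 4.3.3, TMM, quasi-likelihood, pair as a block, 7 residual degrees of freedom) in one fit of all lines. Differences from *Paf1* were tested with limma 3.58.1. DESeq2 1.42.0 was an alternative. P-values were adjusted by Benjamini-Hochberg over all genes tested, with a threshold of 0.05. Samples of the same number deviated together (lowest correlation 0.62 in Tet2 and 0.58 in Tet2dRBD, and 0.27 in Tet1, where 2 pairs mirror each other). Replicates 3 and 4 differed beyond sampling noise, most in the Tet2dRBD inputs (chi-square per gene 17.5, and 2.83 to 3.66 in the remaining groups). This shows only that neither is the other deposited again. Replicates 3 and 4 were counted separately, with their merging as an alternative. Each pathway list named its 3 genes with the largest absolute fitted ratio past the threshold in Tet2. The fits were tested on simulated data. Members and lists were chosen with earlier results of these data known. Sequences were read from NCBIM37 with its gencode annotation.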

Additional observations from a re-analysis of the deposited data

Results flagged for a closer look

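In 36 sets of 4 replicates of a member (IP level, input level and log2 ratio in Tet2 and Tet2dRBD), 2 held a sample far from the other 3, and chance gives about 1 in 20 such sets. Both concern *Paf1* in Tet2dRBD. Its IP level was 28.6 TPM in replicate 1, against 22.6 to 23.0 TPM in the other 3 IPs, so that the gap made up 0.943 of the range. Its log2 ratio was 0.34 in replicate 2, against -0.14 to -0.22 in the other 3 pairs, a gap of 0.848 of the range.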

How the results depend on the processing

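Under the alternatives, 726 values of single members kept their direction and their side of the threshold, 37 came to pass it, 51 ceased to pass it and 47 that did not pass changed sign. Within the library set of replicates 3 and 4 and of Tet1, the changed signs were *Cdc73* at -0.089 in Tet2, -0.23 in Tet2dRBD and 0.14 for Tet2 minus Tet2dRBD, *Paf1* at 0.0068 for that difference, and *Leo1* at 0.43 and *Wdr61* at -0.025 for Tet1 minus Tet2. By limma on log2(TPM + 1) and log2(TPM + 0.1) they were *Wdr61* at 0.0118 and 0.0119 in Tet1 and 0.15 and 0.15 in Tet2dRBD, *Cdc73* at 0.011 and 0.0064 for Tet2 minus Tet2dRBD, and *Cdc73* at -0.10 and -0.10 and *Paf1* at -0.10 and -0.11 for Tet1 minus Tet2. *Cdc73* was also at 0.11 for Tet2 minus Tet2dRBD without the replicate block and at -0.062 for Tet1 minus Tet2 with replicates 3 and 4 merged. In the inputs, *Rtf1* was at -0.015 by DESeq2 and -0.0084 with no filter for Tet2dRBD minus Tet2, and *Leo1* at 0.27 for Tet1 minus Tet2 without the library set block. Over the leave-one-out fits, signs changed for Tet2 minus Tet2dRBD in *Cdc73* (-0.37 to 0.18), *Ctr9* (-0.0054 to 0.72), *Leo1* (-0.027 to 0.74) and *Paf1* (-0.24 to 0.035), for Tet1 minus Tet2 in *Cdc73* (-0.082 to 0.24), *Leo1* (-0.45 to 0.27) and *Paf1* (-0.070 to 0.15), for the inputs of Tet2dRBD minus Tet2 in *Cdc73* (-0.023 to 0.37), *Leo1* (-0.12 to 0.58) and *Rtf1* (-0.091 to 0.22), for those of Tet1 minus Tet2 in *Leo1* (-0.28 to 0.14), and for *Wdr61* minus *Paf1* in Tet2 (-0.020 to 0.27). Without the replicate block, the members called went from 5 to 0 in Tet2, where all genes called went from 4540 to 375. Those differing from *Paf1* went from 1 to 0 in Tet1 (all genes, 1056 to 2), from 4 to 3 in Tet2 (5801 to 1173) and from 2 to 0 in Tet2dRBD (2209 to 11). Without the library set block the count for the inputs of Tet1 against Tet2 went from 1 to 0 (all genes, 4191 to 54). By DESeq2 the counts were 1 in Tet1, 5 in Tet2, 2 in Tet2dRBD and 2 for the inputs of Tet1 against Tet2, with 1578, 4919 and 3281 genes called in the 3 IPs beside 809, 4540 and 2674 by edgeR. For those inputs DESeq2 called 4348 genes and edgeR 4191. Limma on log2(TPM + 1) or log2(TPM + 0.1) gave 3 members in Tet2, beside 5894 and 5774 genes in all, and 2 in Tet2dRBD, beside 3814 and 3749. No filter on low counts gave 1 in Tet2dRBD, beside 2342 genes, and 4 in Tet2, beside 4142, where *Wdr61* was lost (adjusted p = 0.059 by edgeR). With a mean input of at least 5 TPM, *Rtf1* minus *Paf1* passed in Tet2dRBD (limma, adjusted p = 0.045). Within the library set of replicates 3 and 4 and of Tet1, 4 members passed in Tet1 and 3 in Tet2dRBD, beside 6260 and 6568 genes in all, and with replicates 3 and 4 merged 1 passed in Tet2, beside 3191 genes. With the IP at least 1.5 times the input in every pair, 1 member met the rule in Tet1, 1 in Tet2 and 0 in Tet2dRBD, beside 1248, 810 and 177 genes in all. Over the leave-one-out fits, the counts called ranged from 0 to 1 in Tet1, 1 to 5 in Tet2 and 0 to 2 in Tet2dRBD, from 0 to 2 for the inputs of Tet2dRBD against Tet2 and from 0 to 5 for those of Tet1 against Tet2. The counts differing from *Paf1* ranged from 0 to 1 in Tet1, 3 to 4 in Tet2 and 1 to 2 in Tet2dRBD, and those above input in every pair from 4 to 5 in Tet1 and Tet2dRBD and were 4 in Tet2. A fit without 1 Tet1 pair leaves a lone pair that is assumed to vary like the other lines. The cause of these changes was not tested. The members' expected counts were 129 to 4752 per library, and the number of pairs, 2 in Tet1, limits the precision.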
